A study of Mus musculus with 4 samples.

Results

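The AP-1 and immediate early genes Fos, Fosb, Jun, Junb, Jund, Egr1, Ier2, Dusp1, Atf3 and Nr4a1 were followed in sorted long-term haematopoietic stem cells (LT-HSCs) of Fam122a knockout (KO) and wild-type (WT) mice. The 10 genes were chosen by name, as transcription factors and a phosphatase, most of which respond within minutes to signalling and to the handling of cells. Jund is expressed more steadily in most cells. All 10 were found among the 51912 Ensembl genes listed in each library, and all passed the filter on low values, a mean of at least 1 FPKM in the libraries compared. FPKM is a fragment count scaled to gene length and library size, so levels of different genes can be set side by side. Expression was read in 2 Fam122a KO libraries (KO 1 and KO 2) and 2 WT libraries (WT 1 and WT 2). Both groups were C57BL/6 mice of 8 to 12 weeks, and each library pooled sorted cells of 3 animals. The gate was LSK (lineage-negative, Sca1-positive, Kit-positive) CD34- Flk2-. How Fam122a, the gene of an inhibitor of the phosphatase PP2A, was deleted and in which cells is not given in the sources used here. KO 1 and KO 2 were compared with WT 1, and WT 2 is shown separately as a library of poor RNA content.

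Immediate early genes are kept poised for transcription and are switched on by signals that need no new protein synthesis. Their RNA is short-lived, so their level follows recent activity of kinases such as the MAP kinases, and enzymatic or mechanical handling of tissue is known to switch them on as well. FOS and JUN proteins pair through leucine zippers to form the AP-1 transcription factor, and FOS itself needs a JUN partner to bind DNA stably. In blood stem cells, AP-1 and EGR1 are known for roles in the balance of quiescence, retention in the marrow and differentiation.

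Promoter sequences carry part of the known control of these genes, and those of 4 genes are shown because they hold an element found in most of the promoters searched. RefSeq promoters (GRCm38.p6) were matched for 8 of the 10 genes, all but Egr1 and Ier2, and the 250 bases before the start site were searched on both strands. The core of the cAMP response element (CRE), TGACG or its reverse complement CGTCA, stood in 6 of the 8 promoters and in 17.8% of 32851 mouse promoters. It is in capitals below. Each sequence runs 5′ to 3′ on the gene's own strand.
Fos promoter, chr12:85473640-85473889, plus strand: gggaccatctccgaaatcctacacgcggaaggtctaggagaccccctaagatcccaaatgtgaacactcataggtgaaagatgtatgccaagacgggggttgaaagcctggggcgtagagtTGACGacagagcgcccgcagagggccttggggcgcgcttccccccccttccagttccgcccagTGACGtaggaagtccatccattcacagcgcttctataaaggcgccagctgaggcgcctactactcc
Fosb promoter, chr7:19310046-19310295, minus strand: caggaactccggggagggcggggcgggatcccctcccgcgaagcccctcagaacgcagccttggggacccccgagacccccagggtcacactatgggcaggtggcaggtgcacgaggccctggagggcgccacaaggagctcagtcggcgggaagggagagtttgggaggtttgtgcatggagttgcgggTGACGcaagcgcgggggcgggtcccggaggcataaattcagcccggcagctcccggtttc
Junb promoter, chr8:84978749-84978998, minus strand: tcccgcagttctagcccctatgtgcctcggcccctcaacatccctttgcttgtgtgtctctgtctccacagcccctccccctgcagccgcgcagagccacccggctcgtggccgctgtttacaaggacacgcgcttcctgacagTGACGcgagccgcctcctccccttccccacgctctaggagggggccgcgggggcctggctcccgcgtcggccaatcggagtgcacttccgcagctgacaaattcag
Dusp1 promoter, chr17:26508473-26508722, minus strand: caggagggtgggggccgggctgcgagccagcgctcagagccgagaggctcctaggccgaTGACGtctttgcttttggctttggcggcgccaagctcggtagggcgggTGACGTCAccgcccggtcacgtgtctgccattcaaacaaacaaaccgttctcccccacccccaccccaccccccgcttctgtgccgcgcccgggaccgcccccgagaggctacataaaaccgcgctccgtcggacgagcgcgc

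The full CRE, TGACGTCA, which holds a core on each strand, stood in the Dusp1 promoter alone among the 8 (1.55% of all promoters). Fos had cores from -129 to -125 and from -66 to -62, counted back from the start site, and Atf3 and Nr4a1 were the other 2 members with a match. The GC box GGGCGG, bound by SP1, stood in 6 of the 8 (32.7% of all promoters), and TATAAA stood in Fos alone (12.4%). The CArG box, the site of serum response factor, was in 0 of the 8 windows (1.47%), and the AP-1 site TGANTCA was in 0 of the 8 (6.75%). The best known CArG box of Fos lies further upstream than this window. The Jund window lies upstream of the Jund start in the GENCODE annotation. These matches are descriptions of the letters in the windows.

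The 3′ untranslated regions (UTRs) were searched for AU-rich elements, which are known to mark an mRNA for rapid decay. The nonamer TTATTTATT occurred once in Fos and 2 times in Dusp1, whose levels were the highest of the 10 in KO 1, KO 2 and WT 1, against 7.10% of 20018 coding genes with at least 1 copy. These 3 sites in GRCm38, with the nonamer in capitals, follow.
Fos 3′ UTR, chr12:85477105-85477129, plus strand: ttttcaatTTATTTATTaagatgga
Dusp1 3′ UTR, chr17:26506161-26506185, minus strand: gctggtccTTATTTATTtaacaccc
Dusp1 3′ UTR, chr17:26505872-26505896, minus strand: ttttacctTTATTTATTtttgtgta

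The shorter pentamer ATTTA was found 5.80 times per kb of 3′ UTR in Dusp1, 5.52 times in Nr4a1, 4.91 times in Fos and 4.12 times in Junb, against a median of 1.2 over all coding genes. Ier2 had none, and Fosb had 0.466 per kb.

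The libraries differed in quality, and these facts bear on every value that follows. The implied depth, read from the steps of low values in single-exon genes, was 6840000 and 5940000 fragments in KO 1 and KO 2, against 4240000 in WT 1 and 2520000 in WT 2. Over 14821 coding genes, log2 values of KO 1 and KO 2 correlated at 0.977, those of KO and WT 1 at 0.854 and 0.845, and those of WT 1 and WT 2 at 0.0596. Loci with no gene name held 1.74% and 1.81% of the summed FPKM in KO 1 and KO 2, against 9.14% in WT 1 and 53.9% in WT 2. Genes whose genomic span exceeds 16 times their exonic length had a median of 0.92 and 1.02 FPKM in KO 1 and KO 2, against 7.22 FPKM in WT 1 and 27.6 FPKM in WT 2. Fam122a itself was listed at 0 in both KO libraries and at 18.4 and 7.46 FPKM in WT 1 and WT 2. All 10 stem cell markers examined were above 0 in KO 1, KO 2 and WT 1, but so was every marker of the other cell types. Cd34, which the gate excludes, was at 87.7 and 62.1 FPKM in KO 1 and KO 2, against 179 FPKM in WT 1, and Flt3, the gene of Flk2, was at 36.2 and 24.7 FPKM, against 26.2 FPKM in WT 1. The 9 neutrophil markers held 9.40% and 8.33% of the Ensembl FPKM in KO 1 and KO 2, against 18.4% in WT 1 and 0.0581% in WT 2. The 8 erythroid markers held 7.30% and 9.92% in KO 1 and KO 2, against 5.42% in WT 1 and 0.0308% in WT 2. The 8 B cell markers held 0.199% and 0.271% in KO 1 and KO 2, against 0.112% in WT 1. The remaining lists were smaller, with sums in KO 1, KO 2 and WT 1 of 248, 216 and 204 FPKM for monocyte, 393, 316 and 646 FPKM for T and NK cell, 97.8, 52.1 and 133 FPKM for megakaryocyte, 35.4, 29.8 and 30.9 FPKM for stromal and 532, 536 and 525 FPKM for stem cell markers. Nkg7 alone held 378, 299 and 628 FPKM of the T and NK cell sums in KO 1, KO 2 and WT 1. The rest of that list was at 6.75 FPKM or less in these libraries, with Cd4 and Cd8a above WT 1 and Cd3e and Cd3g below it in both KO libraries. Blood cells other than stem cells also express immediate early genes, and the part of these transcripts in the results below was not tested.

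All 10 genes but Fosb and Atf3 were above 50 FPKM in both KO libraries and in WT 1. Their summed level was 1781 and 1756 FPKM in KO 1 and KO 2, against 1482 FPKM in WT 1 and 8.77 FPKM in WT 2. Fos was the highest of the 10 in each of the 4 libraries, and stood at rank 156 and 165 of 21870 coding genes in KO 1 and KO 2 and at rank 170 in WT 1. Dusp1 came second in KO 1, KO 2 and WT 1, and Jund, Atf3 and Fosb were the eighth, ninth and lowest in all 3. Between them, the KO ranges of neighbours overlapped for Ier2 with Junb, Junb with Nr4a1, Nr4a1 with Egr1, and Egr1 with Jun. The other neighbours in the order of KO means (Fos and Dusp1, Dusp1 and Ier2, Jun and Jund, Jund and Atf3, Atf3 and Fosb) did not overlap between the 2 KO libraries.

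**Figure D1:**
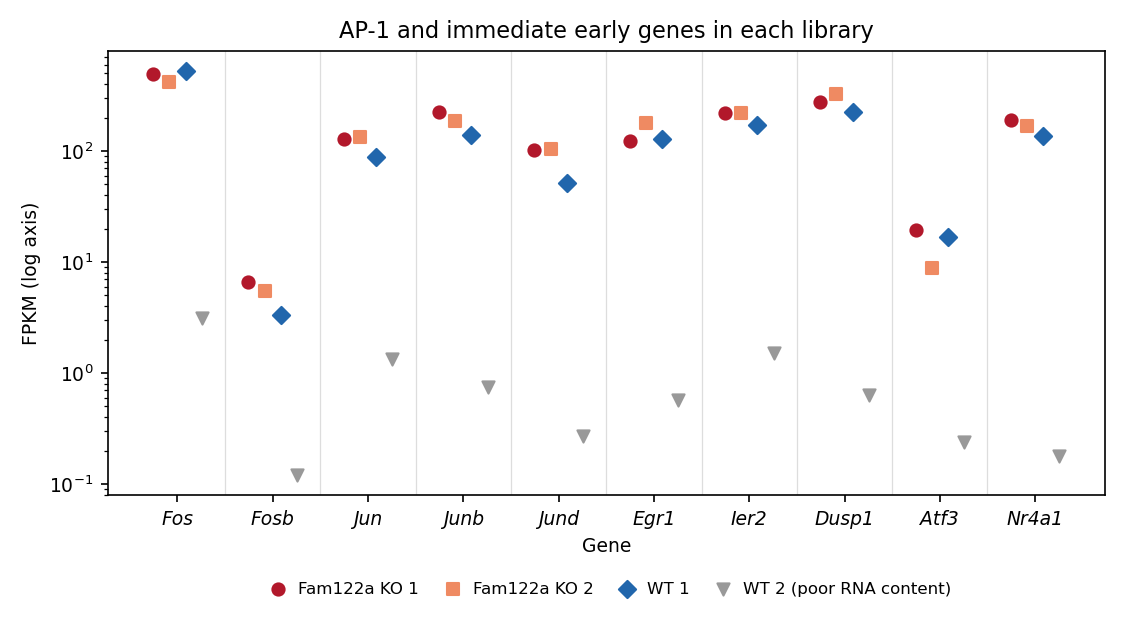
FPKM of the 10 genes in each library on a log axis, with 1 point per library (circles KO 1, squares KO 2, diamonds WT 1, triangles WT 2). The KO libraries and WT 1 lie close together for each gene, from 3.32 FPKM for Fosb in WT 1 to 526 FPKM for Fos in WT 1, and WT 2 is the lowest point for all 10.

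None of the 10 genes was called when Fam122a KO was set against WT 1. With limma on log2(FPKM + 1) and Benjamini-Hochberg adjustment over 15867 genes, 0 of the 10 were called at an adjusted p under 0.05. Of all genes tested, 0.454% were called higher and 9.37% lower in KO, so a count of 0 among 10 is close to the background. An unadjusted p under 0.05 was reached by 3 genes, Jun, Jund and Ier2, all higher in KO, where 13.2% of all genes reached it on that side and 20.2% on the other. These 3 genes have a span under 4 times the exonic length. In a fit of the 4629 coding genes of that kind alone, 1264 reached it on the higher side and 364 on the other. Both KO libraries lay above WT 1 for 7 genes and both below it for 1. Of all genes tested, 42.5% lay above in both and 43.0% below in both, and 59.6% lay above among 4629 coding genes with a span under 4 times the exonic length. The median log2 difference of the group was 0.41, against -0.0021 for all genes tested and 0.30 for those short-span coding genes. Among 1186 short-span coding genes with a mean of at least 50 FPKM, a level that Fosb and Atf3 do not reach, the median was 0.16. Of these, 54.0% lay above WT 1 in both KO libraries. A single WT library entered this fit, and it was assumed to vary like the KO pair. In bulk RNA, fewer cells of a type and less RNA per cell cannot be told apart.

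**Figure D2:**
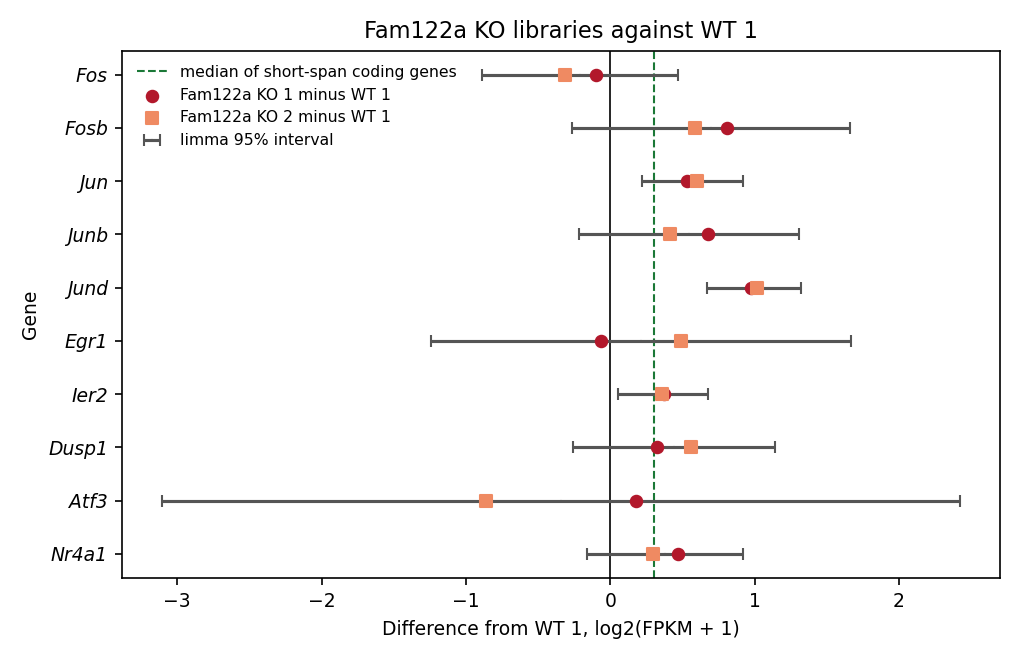
Differences of log2(FPKM + 1) between each Fam122a KO library and WT 1, by gene (circles KO 1, squares KO 2), with limma's 95% interval of the mean difference as bars. The dashed line is the median of short-span coding genes (0.30). Only the intervals of Jun, Jund and Ier2 leave out 0, and no adjusted p was under 0.05.

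Neither FOS family gene passed the test, and the intervals of their differences overlapped. Fos, whose protein is the classic inducible subunit of AP-1, is on chromosome 12 (GRCm38 85473890 to 85477273, plus strand) and was at 490.5 and 422 FPKM in KO 1 and KO 2, against 526 FPKM in WT 1. Both KO values lay below WT 1, and the gap between the KO libraries was wider than that between KO 1 and WT 1. The log2 difference was -0.21 (SE 0.16, limma adjusted p = 0.445), with an interval from -0.89 to 0.47 that leaves room for a change in either direction. Its sign depended on the scaling, since the difference was 0.026 with equal library totals and 0.024 after quantile normalization. Fosb, a paralogue that is induced more slowly, was at 6.57 and 5.49 FPKM in KO 1 and KO 2, against 3.32 FPKM in WT 1. Both KO libraries were above WT 1, at low levels, and the log2 difference of 0.70 (SE 0.23) had an adjusted p of 0.199. Fos was 74.7 and 76.8 times as abundant as Fosb in KO 1 and KO 2, against 158 times in WT 1. The ratio in WT 2 was 26.2, below the KO values, but it divides by a Fosb level of only 0.12 FPKM. A ratio on so low a value does not show where WT lies.

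The JUN family lay above WT 1 in both KO libraries for all 3 genes, which are among the 7 of the 10 that did so. All 3 are of short span, and 59.6% of short-span coding genes lay above as well. Jund, the family member with the steadiest expression in most cells, had the widest gap. It is a single-exon gene on chromosome 8 (70698949 to 70700616, plus strand) and was at 102 and 105 FPKM in KO 1 and KO 2, against 51.5 FPKM in WT 1. The KO libraries differed from each other far less than either did from WT 1, and these levels correspond to an estimated 984 and 885 fragments in KO 1 and KO 2, against 309 in WT 1. The KO mean was 2.01 times the WT 1 value (log2 difference 1.0, SE 0.08, interval 0.67 to 1.32), and the adjusted p was 0.0538. Over the 11 fits without WT 2, the adjusted p ranged between 0.0234 and 0.0815 and passed in 5, namely with a pseudocount of 5 FPKM (0.0474), no filter (0.0234), equal totals (0.0499), the median difference set to 0 (0.0367) and quantile normalization (0.0467). A difference of at least this size was found in 12.1% of short-span coding genes. The antisense gene Gm11175 lies wholly on Jund in exonic sequence (877 bp), and as the kit does not mark strand their reads cannot be told apart. Gm11175 was listed at 0 and 1.99 FPKM in KO 1 and KO 2 and at 0 in WT 1. Those values depend on how shared reads were assigned, so they do not show its part in the Jund level.

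Jun, the founding member and the strongest activator of the family, is a single-exon gene on chromosome 4 (95049034 to 95052222, minus strand). Its level was 128 and 135 FPKM in KO 1 and KO 2, against 88.2 FPKM in WT 1, with an estimated 2567 and 2348 fragments against 1099. The KO pair was close together and above WT 1 (log2 difference 0.57, SE 0.08, unadjusted p = 0.0197), but the adjusted p was 0.0989, and it was between 0.0652 and 0.128 over the fits without WT 2. Junb, a weaker activator that can oppose JUN and that restrains myeloid expansion from stem cells in mice, lies on chromosome 8 (84974484 to 84978718, minus strand). Its level was 223 and 185 FPKM in KO 1 and KO 2, against 139 FPKM in WT 1. The KO libraries were above WT 1 yet apart from each other, and the log2 difference of 0.55 (SE 0.18) had an adjusted p of 0.201. Junb shares 173 bp of exonic sequence with Prdx2 on the other strand, which was at 441 and 619.7 FPKM in KO 1 and KO 2, against 390.3 FPKM in WT 1.

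The make-up of the AP-1 transcripts can be read within each library, where the scaling cancels. The JUN family held 47.7% and 49.9% of the summed FPKM of the 5 FOS and JUN genes in KO 1 and KO 2, against 34.5% in WT 1. The ratio of Fos to Jund was 4.80 and 4.01 in KO 1 and KO 2, against 10.2 in WT 1, and that of Fos to Jun was 3.83 and 3.14, against 5.96 in WT 1. The ratio of Fos to Junb was 2.20 and 2.28 in KO 1 and KO 2, against 3.78 in WT 1. All 3 ratios were lower in both KO libraries than in WT 1. WT 2, with few fragments in these genes, gave 11.6, 2.34 and 4.19 for the 3 ratios in the same order, so its ratio of Fos to Jun was below the KO values and the other ratios were above them. No test was made of these ratios, since they combine values already tested and rest on 1 WT library.

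**Figure D3:**
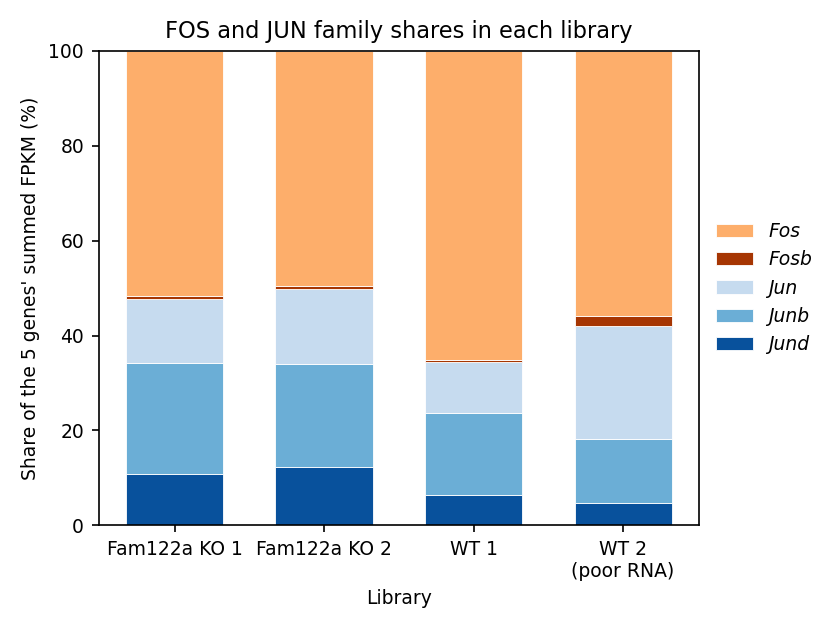
Share of each FOS and JUN family gene in the summed FPKM of the 5 genes, in percent, with 1 bar per library. The JUN family (blue) reaches 47.7% and 49.9% in KO 1 and KO 2, 34.5% in WT 1 and 42.0% in WT 2.

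Among the other transcription factors, Egr1 and Atf3 had KO values on both sides of WT 1. Egr1, a zinc finger factor known to restrain division of blood stem cells in mice, was at 122 and 179 FPKM in KO 1 and KO 2, against 128 FPKM in WT 1 (log2 difference 0.21, SE 0.34, adjusted p = 0.690). Atf3, a stress-induced bZIP repressor, was at 19.3 and 8.89 FPKM in KO 1 and KO 2, against 16.95 FPKM in WT 1 (-0.34, SE 0.65, adjusted p = 0.737). The spread between the KO libraries exceeded the difference from WT 1 for both genes, and their intervals, from -1.24 to 1.67 and from -3.10 to 2.42, hold large changes in either direction. Nr4a1, an orphan nuclear receptor, lay above WT 1 in both KO libraries, with 189 and 168 FPKM in KO 1 and KO 2 and 136 FPKM in WT 1 (0.38, SE 0.13, adjusted p = 0.205). Ier2, a nuclear protein of the immediate early response, was the most alike between the KO libraries, with 221 and 219 FPKM in KO 1 and KO 2, against 170.3 FPKM in WT 1. Its log2 difference was 0.37 (SE 0.07, interval 0.06 to 0.67), with an unadjusted p of 0.0366 and an adjusted p of 0.130.

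Dusp1 encodes a nuclear phosphatase that switches off p38, JNK and ERK and so closes the loop on the kinases that induce the group. It was at 279 and 329 FPKM in KO 1 and KO 2, against 223 FPKM in WT 1. Both KO libraries were above WT 1, and the log2 difference of 0.44 (SE 0.16) had an adjusted p of 0.228. Per transcript of Fos, Dusp1 stood at 0.569 and 0.780 in KO 1 and KO 2, against 0.424 in WT 1, again with both KO libraries above WT 1. The GENCODE spans of Dusp1 and Atf3 are 17.1 and 22.2 times their exonic length, whereas 7 of the other 8 genes span less than 4 times. However, the RefSeq promoter windows of Dusp1 (chr17:26508473-26508722) and Atf3 (chr1:191183334-191183583) lie inside these spans. Transcripts from those RefSeq starts cover a shorter stretch, so the ratios depend on the transcripts taken, as does that of Nr4a1 (5.85 times). Whether Dusp1 or Atf3 behaves like the long-span genes, which were relatively high in WT 1, was not tested.

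WT 2 held almost none of these transcripts. Fos was at 3.14 FPKM there, Ier2 at 1.52, Jun at 1.34, Junb at 0.75, Dusp1 at 0.64, Egr1 at 0.57, Jund at 0.27, Atf3 at 0.24, Nr4a1 at 0.18 and Fosb at 0.12. The group's WT 2 level was 0.569% of the WT 1 level at the median, from 0.132% for Nr4a1 to 3.61% for Fosb. Coding genes of at least 10 FPKM in WT 1, a cut that Fosb does not meet, kept a median of 15.4%, and those of short span 4.47%. A share no higher than the 3.61% of Fosb was found in 29.5% of these coding genes and 45.2% of the short-span ones. This cut is the highest share in the group, so every member meets it. How many of these genes fall as low as the group's median of 0.569% was not counted. For the single-exon genes, the WT 2 values stand for an estimated 10 fragments of Jun, 5 of Ier2 and 1 of Jund, and 3 fragments would be 0.40, 0.91 and 0.82 FPKM. The Jund value is thus under the level of 3 fragments. Fragments were not estimated for the other genes, and Atf3, Nr4a1 and Fosb had still lower FPKM than Jund in WT 2.

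Set against WT 2 alone, limma called 9 of the 10 genes higher in KO (all but Atf3, adjusted p = 0.0729), where 34.2% of 20739 genes were called higher and 42.7% lower. The log2 differences ran from 2.65 for Fosb to 7.53 for Dusp1, with a median of 6.51. With all 4 libraries, 7 of the 10 lay above both WT libraries in both KO libraries, as did 27.1% of 20434 genes. WT 2 was the lowest library for all 10, so these are the same 7 as against WT 1 alone, and the count adds no support. The group's median difference with all 4 libraries was 3.40, and limma called 0 of the 10 (adjusted p from 0.418 to 0.477, 0 with an unadjusted p under 0.05), as it called 0.0% of all genes in either direction. An unadjusted p under 0.05 was found for 0.577% of all genes on the higher side and 11.6% on the lower. The size of every difference therefore turned on which WT library was used, and Fos and Atf3 changed sign with it.

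The wider pathway was described with 7 lists of 108 genes, of which 103 were tested. In all, 0 were called higher and 1 lower in KO, against 0.454% and 9.37% of all genes tested. In both KO libraries 66 lay above WT 1 and 19 below it, where the shares over all genes tested were 42.5% and 43.0%, and 59.6% of short-span coding genes lay above. Among the other AP-1 and bZIP partners, 0 of 12 passed, 9 were above WT 1 in both KO libraries, and the median log2 difference was 0.48. Mafk, a small MAF protein, was at 48.9 and 40.0 FPKM in KO 1 and KO 2, against 23.8 FPKM in WT 1 (adjusted p = 0.144). Atf7, an ATF2 relative, was at 28.0 and 21.7 FPKM, against 14.6 FPKM in WT 1 (adjusted p = 0.209).

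Of the other immediate early genes, 0 of 26 were called and 18 were above WT 1 in both KO libraries, with a median of 0.37. Ppp1r15a, whose product GADD34 dephosphorylates eIF2α, was at 166 and 173 FPKM in KO 1 and KO 2, against 88.5 FPKM in WT 1 (log2 difference 0.93, SE 0.08, adjusted p = 0.0601). Klf2, a Krüppel-like factor of quiescent lymphocytes and endothelium, was at 68.4 and 63.4 FPKM, against 33.0 FPKM in WT 1 (0.97, SE 0.10, adjusted p = 0.0749). Nr4a3, a relative of Nr4a1, was at 2.1 and 2.13 FPKM, against 1.13 FPKM in WT 1 (adjusted p = 0.112). Unlike the 10 genes, Nr4a3 was highest in WT 2, at 121 FPKM.

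MAP kinase feedback held the only call. Spred2, an inhibitor of the step that activates RAF, fell to 7.78 and 9.46 FPKM in KO 1 and KO 2, against 69.6 FPKM in WT 1 and 78.0 FPKM in WT 2 (log2 difference -2.88, SE 0.20, adjusted p = 0.0476 without WT 2). The call passed in 7 of 10 fits without WT 2 (adjusted p from 0.0199 to 0.0814) and against WT 2 alone (-3.04, adjusted p = 0.0159). With all 4 libraries the difference was as large (-2.96) and the adjusted p was 0.352. Spred2 spans 21.6 times its exonic length, and 513 of 2304 tested coding genes of more than 16 times were called lower in KO, with a median of -0.95. The other feedback genes tested did not pass, and the list's median was 0.41.

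The activators of immediate early promoters gave 0 calls of 12 and a median of 0.29. Crtc2, a CREB coactivator, was at 46.1 and 45.0 FPKM in KO 1 and KO 2, against 22.6 FPKM in WT 1 (adjusted p = 0.0662). Elk1, a partner of serum response factor, was at 4.30 and 4.32 FPKM, against 17.3 FPKM in WT 1 (adjusted p = 0.0737). Mkl2, a myocardin-related coactivator of the same factor, was at 3.97 and 4.04 FPKM, against 12.5 FPKM in WT 1 (adjusted p = 0.0907), and spans 17.9 times its exonic length.

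The MAP kinase cascade had 0 calls of 20, 13 genes above WT 1 in both KO libraries and a median of 0.30. Map2k3, a kinase that activates p38, was at 124 FPKM in both KO libraries, against 71.9 FPKM in WT 1 (adjusted p = 0.0650). Mapkapk2, a kinase downstream of p38, was at 143 and 142 FPKM in KO 1 and KO 2, against 80.5 FPKM in WT 1 (adjusted p = 0.0613). Map2k6, the other main p38 activator, was at 6.70 and 4.42 FPKM in KO 1 and KO 2, against 102 FPKM in WT 1 (adjusted p = 0.0602), and spans 36.7 times its exonic length. Rps6ka3, a kinase downstream of ERK that was picked after its values were seen, was at 6.99 and 4.80 FPKM in KO 1 and KO 2, against 59.8 FPKM in WT 1 (log2 difference -3.16, SE 0.32, adjusted p = 0.0720), and spans 19.0 times its exonic length.

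Genes of AU-rich mRNA decay gave 0 calls of 10, with 8 above WT 1 in both KO libraries and a median of 0.47. Zfp36l2, which binds AU-rich elements and recruits deadenylases, was at 109.8 and 143 FPKM in KO 1 and KO 2, against 58.9 FPKM in WT 1 (adjusted p = 0.145). Cnot1, the scaffold of the CCR4-NOT deadenylase, was at 51.0 and 56.2 FPKM, against 28.2 FPKM in WT 1 (adjusted p = 0.0910), and its catalytic subunit gene Cnot6 at 61.1 and 69.1 FPKM, against 43.9 FPKM in WT 1 (adjusted p = 0.151).

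Heat shock genes, which are known to respond to warmth and cell handling, lay on both sides of WT 1. Of 13, 0 were called, 5 were above and 4 below WT 1 in both KO libraries, and the median was -0.16. Hspe1, a mitochondrial chaperonin, was at 72.2 and 73.0 FPKM in KO 1 and KO 2, against 99.8 FPKM in WT 1 (adjusted p = 0.109). Dnajb1, an inducible HSP40, was at 84.2 and 81.4 FPKM, against 58.9 FPKM in WT 1 (adjusted p = 0.110), and Hsp90ab1 at 475 and 402 FPKM, against 338 FPKM in WT 1 (adjusted p = 0.280). Values of the near-identical Hspa1a and Hspa1b in this list are uncertain. Whether the lists differ from each other was not tested.

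**Figure D4:**
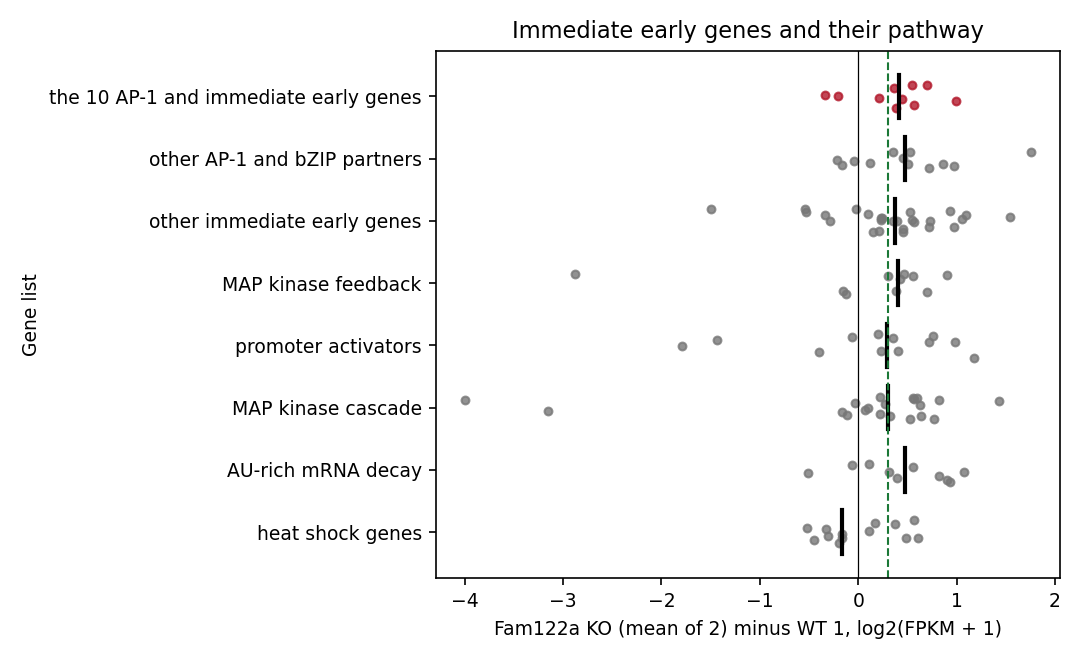
Log2 difference of the KO mean from WT 1 for each tested gene of the 10 and of the 7 pathway lists, with 1 point per gene and a bar at each list's median; the dashed line is the median of short-span coding genes (0.30). The medians run from -0.16 for heat shock genes to 0.48 for other AP-1 and bZIP partners, and the 3 points furthest left are Map2k6 (-4.0), Rps6ka3 (-3.16) and Spred2 (-2.88).

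Over the 4 libraries, the coding genes whose log2 profile lay nearest to that of Fos, out of 21869, were Dazap2 (Euclidean distance 0.258), Gm11808 (0.289), Rpl4 (0.310), Tagln2 (0.447) and Rpl18 (0.485). Dazap2 was at 452 and 399 FPKM in KO 1 and KO 2, against 494 FPKM in WT 1 and 3.74 FPKM in WT 2. Each of the 5 was high in both KO libraries and in WT 1 and low in WT 2, and a distance over 4 libraries is a description only.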

How the data were processed

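RNA from sorted LT-HSCs was made into libraries with the SMART-Seq v4 kit, per the labels' protocols, which amplifies full-length cDNA and does not mark strand. The deposited tables give 1 number for each feature, without column names. They were read as FPKM computed by the authors, a unit inferred from the numbers and not stated. STAR 2.7.1a, HISAT2 2.1.0 and bcl2fastq are listed, with no role, in the submitters' processing notes. Which tool quantified expression is not given in the sources used here. Of 87703 features, 51912 were Ensembl genes and 35791 were assembled loci with no gene name, which were left out. Positions and lengths came from GENCODE M21 (GRCm38), where 51719 genes matched. Depth was estimated from the steps of low values, where between 83.8% and 90.9% of the single-exon genes used lay within 0.1 of a whole fragment number, and covers counting error only.

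KO 1 and KO 2 were compared with WT 1 with an intensity trend in limma 3.58.1, run in R 4.3.3. It was fitted to log2(FPKM + 1), which understates fold changes of low genes. Genes needed a mean of at least 1 FPKM, and Benjamini-Hochberg adjusted p-values under 0.05 over all genes tested were called. The fit was tested on simulated data. The labels name biological replicates, but the only spread in the main fit is that between KO 1 and KO 2, which limma combines with the spread over all genes. No spread between WT pools enters its p-values. The libraries share replicate numbers, but with 2 pairs and a correlation of 0.0394 between their deviations they were not treated as paired. Named genes were Fam122a, the 10 genes, each list's called genes or otherwise its 3 smallest p-values, and the 5 nearest to Fos. A further gene named by these criteria is left out of the text. The members and lists were chosen with earlier results of these data known. The 9 marker lists were summed without a test. Alternatives covered the libraries in the fit, the block, the pseudocount, the filter, the scaling and the trend, and 2 were added after seeing the data.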

Additional observations from a re-analysis of the deposited data

How the results depend on the processing

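Without WT 2, no tested alternative gave a call to any of the 10 genes but Jund. The counts of genes called higher and lower in KO were 72 and 1487, and moved with the settings: 29 and 672 with a pseudocount of 0.1 FPKM, 18 and 515 with a mean of at least 5 FPKM, 761 and 9265 with no filter, and 25 and 196 with at least 1 FPKM in at least 2 libraries. The higher count was 266 with the median difference set to 0, 865 after quantile normalization and 28 without the intensity trend. Calls that were higher made up 4.62% of all calls, 11.3% with the median set to 0 or the filter in at least 2 libraries, and 33.5% after quantile normalization. Equal totals moved the median of all genes by 0.22 and quantile normalization by 0.21 on the log2 scale. In short-span coding genes alone, a setting chosen after seeing the data, 0 and 0 were called (1264 and 364 at an unadjusted p under 0.05), and the group's median was 0.55 over 7 genes.

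The group's count of calls was 0, and 1 (Jund) with a pseudocount of 5 FPKM, no filter, equal totals, the median set to 0 and quantile normalization. Its median of 0.41 was 0.39 with a pseudocount of 5 FPKM and 0.64 with equal totals. With all 4 libraries, 0 and 0 genes were called (118 and 2364 unadjusted), and also with equal totals, where the group's median was 3.39. The fit with the replicate block gave 0 and 0 too (191 and 1932 unadjusted), with the same median of 3.40, and so changed no call of the fit without the block.

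With WT 2 out of the fit, the group's median was 0.42 for KO 1 alone against WT 1 (without KO 2) and 0.45 for KO 2 alone (without KO 1). These fits of 2 libraries leave no spread and give values only, and fits of 1 KO library against both WT libraries were not run. With WT 2 in place of WT 1 (without WT 1) the median was 6.51, and 7103 genes were called higher and 8850 lower, with 9 of the 10. In the same settings the differences ran from -0.32 to 6.78 for Fos, from -0.061 to 6.57 for Egr1 and from -0.86 to 3.52 for Atf3, which was at 0.18 without KO 2. With all 4 libraries, Fos was at 3.29 and Atf3 at 1.59 with and without the block, and at 3.23 and 1.64 with equal totals. Fos was at 0.026 with equal totals and 0.024 after quantile normalization. Of the pathway genes, Nr4a3 was at -2.37 and Hspe1 at 1.5 with all 4 libraries with and without the block, at -2.53 and 1.42 with equal totals, and with KO 1, KO 2 or WT 1 left out as above they ran from -5.29 to 0.56 for Nr4a3, from -0.46 to 3.46 for Hspe1 and from -1.79 to 0.53 for Elk1. Without WT 2, Nr4a3, Klf2, Ppp1r15a, Elk1, Mkl2, Crtc2, Map2k3, Map2k6, Mapkapk2 and Hspe1 each passed in 1 to 5 of 9 to 11 fits. The cause of these changes was not tested. Depth limits WT 2 most, where Jund rests on an estimated 1 fragment and Atf3, Nr4a1 and Fosb had still lower FPKM.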
